A study of Sus scrofa with 18 samples.

Results

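Thyroid hormone genes are described here in whole fetal pig brain: 9 genes that bind, carry, activate, inactivate or answer to the hormone, out of 31908 genes in the count table. The members were chosen by name. THRA and THRB encode the nuclear receptors, DIO2 and DIO3 the deiodinases, SLC16A10 and SLCO1C1 transporters, CRYM a cytosolic T3-binding protein, and KLF9 and HR genes known to answer to T3. Each of the 9 names matched 1 row of the table, and no member was missing. The brains came from fetuses of Landrace x Large White gilts bred by artificial insemination and left untreated, taken whole at GD45, GD60 or GD90 (gestation day). The 6 groups were female GD45, male GD45, female GD60, male GD60, female GD90 and male GD90, with 3 fetuses in each. No genetic change or agent entered any group. The male and the female that share a gestation day and a litter size were taken as littermates, which gave 3 litters a day. The labels do not name the dams.

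Thyroid hormone reaches the brain mainly as the prohormone T4, which SLCO1C1 carries across cell membranes at the blood-brain barrier and into glia. DIO2 converts T4 to the active T3, and DIO3 inactivates both. T3 then binds the receptors THRA and THRB, which sit on DNA beside a retinoid X receptor, with corepressors when the hormone is absent and coactivators when it is present. In this tissue the hormone is known for its part in neuronal migration, myelination and the maturation of glia.

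From GD45 to GD90 the activating deiodinase DIO2 rose 12.1-fold and the inactivating deiodinase DIO3 fell by 2.58 on the log2 scale, while the receptor THRB rose 7.31-fold. The receptor THRA was 1.17-fold higher, a call lost in 10 of 15 other settings. The response genes KLF9 and HR rose 18.5-fold and 24.8-fold. The T4 transporter SLCO1C1 rose 4.11-fold, and SLC16A10 was low at every gestation day. HR rose mostly between GD60 and GD90 (12.9-fold, after 1.92-fold), whereas DIO2 rose 3.41-fold and 3.55-fold over the 2 intervals.

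Each library held between 15118843 and 19729783 gene counts (median 16413097), and 4 of the 18 libraries were the sum of 2 sequencing runs. Levels are given as CPM, the share of a library's counts that fell in a gene, times 1e+06. Where genes are set beside each other, FPKM is used, which is CPM per 1000 bases of the gene's annotated exons. Folds are from a model of the 9 litters. A gene was called where the adjusted p of edgeR's quasi-likelihood test was under 0.05 over 17003 genes. The 2 brains of the GD45 litter of 8 were small, labelled 0.6653 and 0.7135 against 1.55 to 1.86 for the other GD45 brains, in a unit the labels give as mg, which may be a slip for grams and was not checked here. This litter gave both of the lowest GD45 levels for 4 of the 9 members (THRA, DIO2, SLCO1C1 and KLF9). Without it, every member called between GD60 and GD45 was still called, and the values without it are given beside each of those calls. From GD45 to GD90 without it, the log2 change was 3.39 for DIO2, -2.44 for DIO3 and 2.74 for THRB. It was 1.77 for SLCO1C1, 3.905 for KLF9 and 4.53 for HR, and THRA was not called.

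Both deiodinases are selenoproteins: an in-frame TGA codon, in capitals here, is read as selenocysteine in the active site. The stretches are shown because the 2 genes, which moved in opposite directions, carry the same catalytic feature. They were read from the RefSeq coding sequences in Sscrofa11.1, with 30 bases on each side of the codon, and 39 of the 63 bases (61.9%) were identical between them.
DIO2, chr7:103101884-103101946, minus strand: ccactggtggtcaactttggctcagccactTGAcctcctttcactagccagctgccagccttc
DIO3, unplaced scaffold, 504708 to 504770, plus strand: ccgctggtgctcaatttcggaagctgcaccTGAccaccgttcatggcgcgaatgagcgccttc

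DIO2 (ENSSSCG00000040638, chromosome 7, 103096425 to 103323258, minus strand) was at 2.97, 2.22 and 1.54 CPM in the GD45 females and at 3.13, 2.74 and 1.58 CPM in the GD45 males, from the litters of 16, 17 and 8. At GD60 the 6 libraries ran from 6.08 to 11.2 CPM with a median of 7.92, and at GD90 from 25.8 to 30.5 CPM with a median of 28.5. The ranges of the 3 gestation days did not overlap. DIO2 was 3.41-fold higher at GD60 than at GD45 (log2 1.77 ± 0.22 SE, adjusted p = 0.000918) and 3.55-fold higher at GD90 than at GD60 (log2 1.83 ± 0.21 SE, adjusted p = 7.36e-05). Without the small-brained litter the first of these was 1.57 on the log2 scale, with an adjusted p of 0.00181.

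DIO3 (ENSSSCG00000036990, unplaced scaffold, 504228 to 505142, plus strand) moved the other way. Its levels at GD45 ran from 2.86 to 5.14 CPM with a median of 3.49, at GD60 from 1.12 to 2.20 with a median of 1.44, and at GD90 from 0.331 to 0.902 with a median of 0.568. Every library of a later day lay below every library of the earlier one, although the counts behind the GD90 values were only 5 to 14 per library. DIO3 fell by 1.18 on the log2 scale from GD45 to GD60 (SE 0.25, adjusted p = 0.0123) and by 1.40 from GD60 to GD90 (SE 0.28, adjusted p = 0.00279). The first fall was not called without the GD60 litter of 15 (log2 -1.02, adjusted p = 0.0609). Without the small-brained litter it was called (log2 -1.04, adjusted p = 0.0392). The annotated gene behind these counts, 915 bases, holds no UTR, while the RefSeq gene at the same place runs from 504081 to 506187, so the FPKM of DIO3 rests on part of its transcript.

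Per length, the balance of the 2 deiodinase transcripts reversed. The ratio of DIO2 to DIO3 FPKM had a median of 0.103 at GD45, with a lowest value of 0.0447 and a highest of 0.151. At GD60 the ratio ran from 0.436 to 1.12 with a median of 0.798, and at GD90 from 4.51 to 12.4 with a median of 7.08. The 6 GD45 libraries lay under 1 and the 6 GD90 libraries above it. Where a ratio lies against 1 depends on the lengths used, 6301 bases for DIO2 and 915 for DIO3, while the rise of the ratio with age does not. By CPM, DIO2 was above DIO3 in female GD45 replicate 12 (2.97 against 2.86) and below it in the rest of the GD45 libraries. In every GD60 library it was above DIO3 by CPM. These are ratios of transcripts on the FPKM scale, and enzyme activity was not measured.

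**Figure D1:**
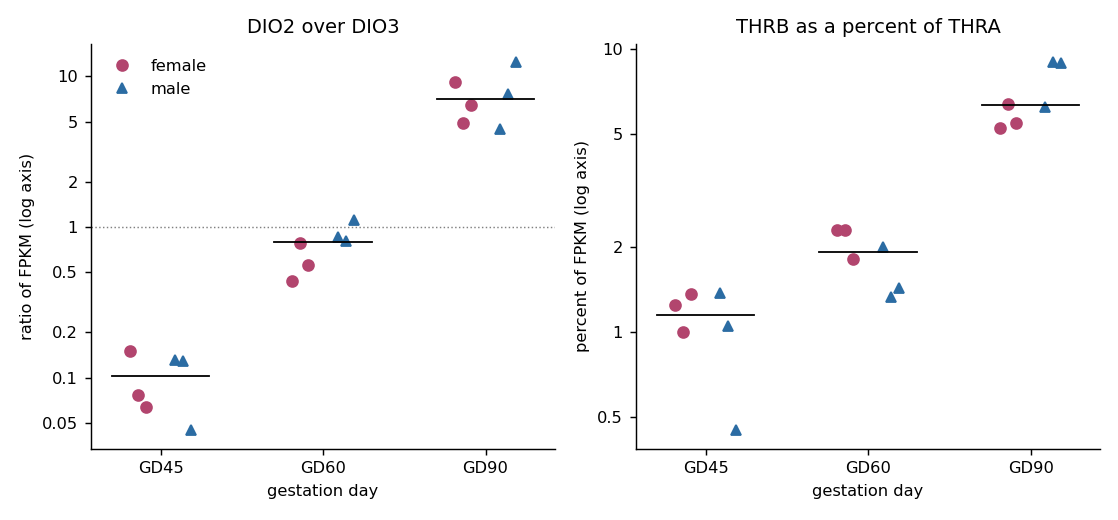
Ratio of DIO2 to DIO3 FPKM (left, log axis) and THRB FPKM as a percent of THRA FPKM (right, log axis) in each of the 18 libraries by gestation day, with circles for females, triangles for males and a line at the median of the 6 libraries of a day. The DIO2 to DIO3 ratio went from a median of 0.103 at GD45 to 7.08 at GD90, and THRB went from 1.14% to 6.33% of THRA.

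THRA (ENSSSCG00000035969, chromosome 12, 22270062 to 22296618, minus strand), the receptor gene known to be expressed early and widely in brain, was the steadier of the receptors. Its levels were 501.0 to 614.0 CPM at GD45, 532.1 to 698.5 at GD60 and 614.4 to 706.8 at GD90, with medians of 592.0, 642.9 and 659.2. The ranges of neighbouring days overlapped, and neither step passed the test (log2 0.15 ± 0.09 SE, adjusted p = 0.307, then 0.08 ± 0.09 SE, adjusted p = 0.508). GD90 against GD45 was called at 1.17-fold (adjusted p = 0.0457), and that call was lost in 10 of 15 other settings, with an adjusted p of 0.103 without the small-brained litter. Of THRA's exon bases, 474 of 9184 (5.16%) overlap NR1D1 on the opposite strand, and NR1D1 was itself 2.75-fold higher at GD90 than at GD60 (adjusted p = 1.52e-05). The strand setting of the counting is not given in the sources used here.

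THRB (ENSSSCG00000036033, chromosome 13, 10900718 to 11359544, minus strand), the receptor gene known to be expressed later and in fewer cells, was at 2.04 to 7.70 CPM at GD45, with a median of 6.23. It was at 7.83 to 14.3 CPM at GD60 (median 10.8) and at 32.6 to 53.2 CPM at GD90 (median 39.1). No day overlapped the next, and the lowest GD45 library, male GD45 replicate 17 of the small-brained litter, lay below the next at 5.40 CPM. THRB was 1.87-fold higher at GD60 than at GD45 (log2 0.91 ± 0.19 SE, adjusted p = 0.0119, and 0.77 with an adjusted p of 0.0357 without that litter). It was 3.90-fold higher at GD90 than at GD60 (log2 1.96 ± 0.19 SE, adjusted p = 2.63e-05). Per length, THRB was 0.447% to 1.37% of THRA at GD45, 1.32% to 2.29% at GD60 and 5.27% to 8.99% at GD90. THRA thus remained the more abundant receptor gene in every library, on counts that pool the annotated transcripts of each receptor. The levels of the separate receptor forms were not resolved. Of THRB's exon bases, 294 of 8387 (3.51%) overlap an unnamed gene on the opposite strand.

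SLCO1C1 (ENSSSCG00000000585, chromosome 5, 52230398 to 52315026, minus strand), the T4 transporter, was at 3.76 to 11.4 CPM at GD45, 12.8 to 18.3 at GD60 and 28.5 to 37.6 at GD90, with medians of 8.33, 13.8 and 31.5. The ranges of the 3 days did not overlap. It was 1.84-fold higher at GD60 than at GD45 (log2 0.88 ± 0.23 SE, adjusted p = 0.0322) and 2.23-fold higher at GD90 than at GD60 (log2 1.16 ± 0.23 SE, adjusted p = 0.00245). The first call was lost in 5 of the 9 fits that left out 1 litter, namely those without the GD45 litter of 17, the GD60 litter of 13, the GD60 litter of 15, the GD90 litter of 11 or the GD90 litter of 18, where the adjusted p ran from 0.0518 to 0.0971. Without the small-brained litter it was 0.62 on the log2 scale, with an adjusted p of 0.0296. The second was called in every setting.

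SLC16A10 (ENSSSCG00000004419, chromosome 1, 76998359 to 77138639, plus strand) encodes a carrier of aromatic amino acids that also transports T3. Its levels were 0.527 to 3.02 CPM at GD45, 0.664 to 2.38 at GD60 and 1.10 to 3.04 at GD90, on 8 to 49 counts per library, and the ranges of the days overlapped. The highest and the lowest GD45 levels both came from the small-brained litter. No comparison passed the test (GD60 against GD45 log2 -0.17 ± 0.28 SE, adjusted p = 0.747, and GD90 against GD60 0.27 ± 0.28 SE, adjusted p = 0.477). Of its exon bases, 1976 of 9169 (21.6%) overlap RPF2 on the same strand. By exon, nearly all of its counts fell in 2 exons at its end, 77130434 to 77136046 and 77136657 to 77138639. The internal exons at 77080126 to 77080270 and 77124446 to 77124674 held 0 counts in every litter. Whether these counts measure the transporter's transcript was not tested.

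CRYM (ENSSSCG00000007849, chromosome 3, 24815010 to 24835836, plus strand), also called mu-crystallin, was abundant: 171.6 to 319.6 CPM at GD45, 140.0 to 291.5 at GD60 and 254.1 to 376.7 at GD90, with medians of 195.5, 200.2 and 284.0. The days overlapped, and the highest GD45 library, again male GD45 replicate 17, lay within the GD90 range. CRYM did not pass the test between GD45 and GD60 (log2 -0.04 ± 0.19 SE, adjusted p = 0.929) and was 1.51-fold higher at GD90 than at GD60 (log2 0.60 ± 0.19 SE, adjusted p = 0.0315). That call was lost without the GD60 litter of 13, the GD60 litter of 15, the GD90 litter of 10 or the GD90 litter of 18, where the adjusted p ran from 0.0733 to 0.124. GD90 against GD45 was called at 1.47-fold (adjusted p = 0.0300) and was not called without the GD45 litter of 16, the GD45 litter of 17, the GD90 litter of 10 or the GD90 litter of 18 (adjusted p 0.0718 to 0.105).

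KLF9 (ENSSSCG00000021646, chromosome 1, 223720445 to 223748226, minus strand), a zinc finger transcription factor and a well known direct T3 target, was at 0.330 to 4.11 CPM at GD45 (median 2.26), at 4.28 to 9.45 CPM at GD60 (median 7.54) and at 36.9 to 46.2 CPM at GD90 (median 42.7). The days did not overlap. The lowest GD45 value, from male GD45 replicate 17, rested on 5 counts. KLF9 was 3.06-fold higher at GD60 than at GD45 (log2 1.61 ± 0.26 SE, adjusted p = 0.00307) and 6.05-fold higher at GD90 than at GD60 (log2 2.60 ± 0.24 SE, adjusted p = 2.16e-05). Without the small-brained litter the first was 1.31 on the log2 scale with an adjusted p of 0.00134.

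HR (ENSSSCG00000009616, chromosome 14, 6386902 to 6407032, minus strand), or hairless, a corepressor that binds thyroid hormone receptors and is itself induced by T3, had the largest change of the members between GD60 and GD90. It was at 0.740 to 1.70 CPM at GD45 (median 1.48), at 1.81 to 3.37 CPM at GD60 (median 2.54) and at 29.0 to 37.0 CPM at GD90 (median 31.5). HR was 1.92-fold higher at GD60 than at GD45 (log2 0.94 ± 0.19 SE, adjusted p = 0.0105) and 12.9-fold higher at GD90 than at GD60 (log2 3.69 ± 0.18 SE, adjusted p = 4.60e-07). Without the small-brained litter the first of these was 0.84 on the log2 scale, with an adjusted p of 0.0325. All 15 HR exons that could be tested rose between GD60 and GD90, by 2.34 to 4.29 on the log2 scale.

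**Figure D2:**
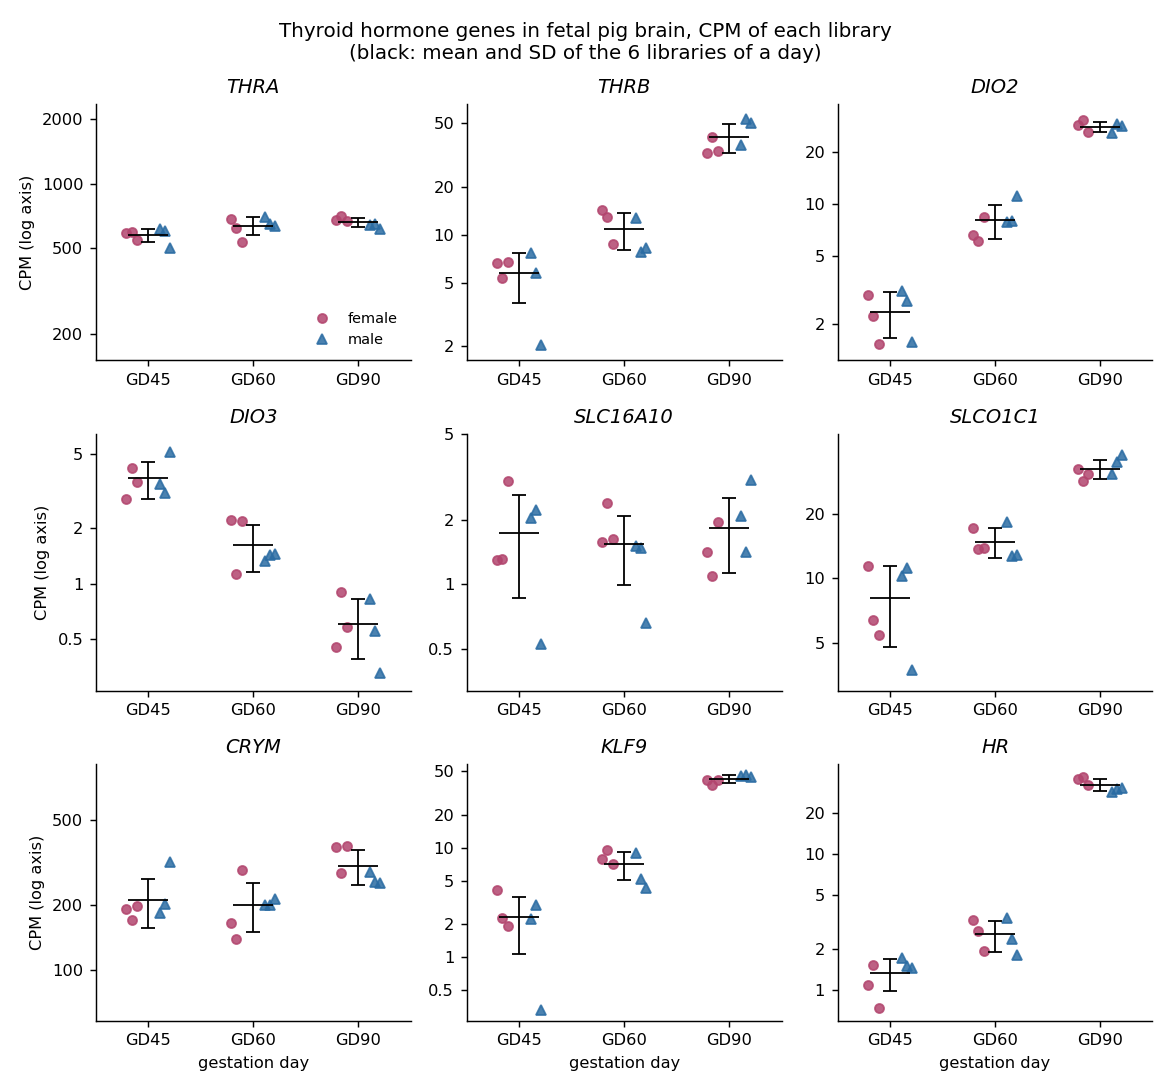
CPM of each of the 9 genes (log axis, 1 panel a gene) in the 18 libraries by gestation day, with circles for females, triangles for males and black bars for the mean and SD of the 6 libraries of a day. THRB, DIO2, SLCO1C1, KLF9 and HR step up without overlap at each day, DIO3 steps down, and THRA, SLC16A10 and CRYM overlap between GD45 and GD60.

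Counted together, 5 of the 9 members rose from GD45 to GD60 and 1 fell, where 6.75% of the genes tested rose and 4.86% fell. From GD60 to GD90, 6 rose and 1 fell, beside 18.7% and 18.7% of all genes. Between the outer days, GD45 and GD90, 7 rose and 1 fell, beside 26.5% and 26.8%, and 2 of the 7, THRA and CRYM, lost the call when certain single litters were left out, as given above. The 6 libraries of GD60 lay wholly above those of GD45 for 5 members and wholly below for 1, and the same counts held for GD90 over GD60. The share of all genes whose libraries separated in this way was not computed, so these counts have nothing to be set against. In whole tissue, fewer cells of a type and less RNA per cell cannot be told apart.

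**Figure D3:**
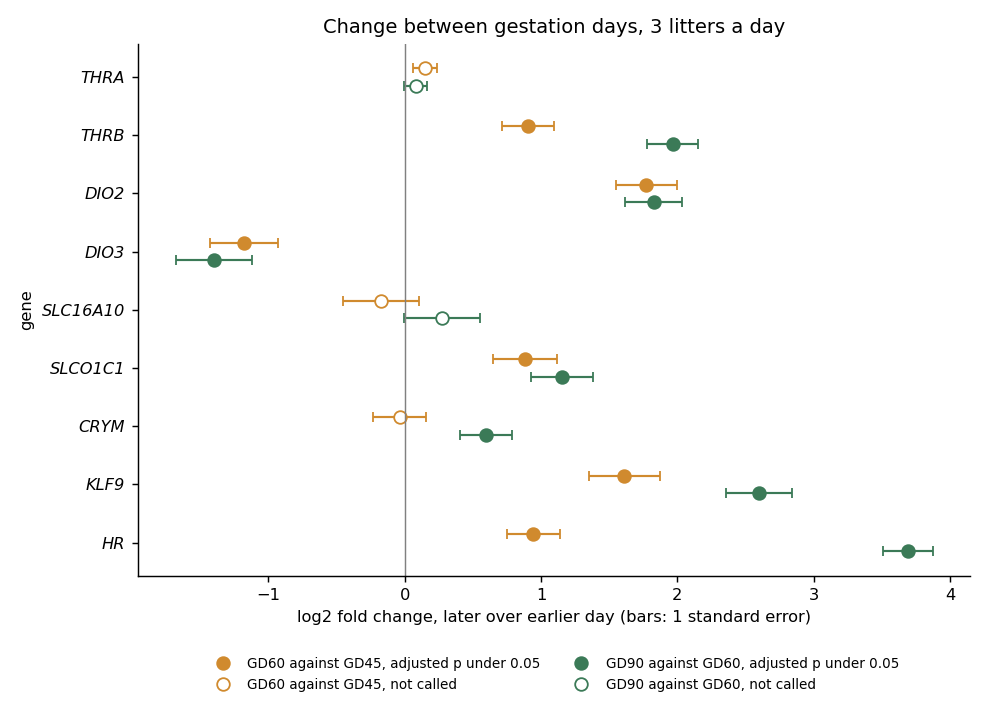
Log2 fold change of each gene between neighbouring gestation days from the model of 3 litters a day, with bars of 1 standard error, filled where the adjusted p was under 0.05. HR (3.69) and KLF9 (2.60) lie farthest to the right for GD90 against GD60, DIO3 lies left of 0 in both, and THRA and SLC16A10 are open in both.

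The order of the levels per length changed with age. At GD45, THRA (median 64.5 FPKM) and CRYM (50.2) led and their ranges overlapped. DIO3 came next at 3.81 FPKM, apart from both neighbours, and then SLCO1C1 (1.18), THRB (0.743), KLF9 (0.507), DIO2 (0.394), HR (0.301) and SLC16A10 (0.182), each overlapping the next. At GD60, the places after THRA (70.0) and CRYM (51.4) went to SLCO1C1 (1.95), KLF9 (1.69), DIO3 (1.57), THRB (1.29) and DIO2 (1.26), whose ranges overlapped in turn, then HR (0.519) and SLC16A10 (0.168), each apart. At GD90, CRYM (73.0) and THRA (71.8) overlapped at the top, and KLF9 came next at 9.56 FPKM, apart from its neighbours. HR (6.42), THRB (4.66), DIO2 (4.52) and SLCO1C1 (4.45) followed with overlapping ranges, DIO3 (0.621) and SLC16A10 (0.183) were last and stood apart. On these lengths DIO3 moved from place 3 to place 8 of the 9 and HR from place 8 to place 4. The places rest on the annotated lengths. The 915 bases of DIO3 hold no UTR. The 7066 bases of SLCO1C1 include a last exon that runs past the RefSeq gene's end at 52234396. That exon held 3 to 14 counts per litter, which may leave out reads in a shorter exon annotated inside it. The order with other lengths was not computed.

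The sexes were compared at each day in a model of all 18 libraries over 16325 genes. No member differed between males and females at GD45, GD60 or GD90 (lowest adjusted p 0.995, 0.779 and 0.400, edgeR), and none had an unadjusted p under 0.05. Over all genes, 0.0919%, 0.098% and 0.098% were called at the 3 days. The likelihood ratio test and DESeq2 called no member either. The standard error of a difference was smallest for THRA (0.10) and largest for SLC16A10 at GD60 (0.46). HR at GD45 was fitted 0.54 ± 0.27 SE higher in males, and KLF9 at GD45 -0.53 ± 0.42 SE.

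Within each sex the courses were alike in direction for the members called. In females 3 of 9 members were called between GD45 and GD60 (KLF9, HR and DIO2), beside 7.22% of genes, and 7 between GD60 and GD90, beside 27.1%. In males 3 were called in the first step (KLF9, DIO2 and DIO3), beside 5.61%, and 6 in the second, beside 34.5%. CRYM was called in females only in the second step (log2 0.86 ± 0.28 SE, adjusted p = 0.0290, against 0.35 ± 0.28 SE in males, adjusted p = 0.336), and the difference between the sexes itself had an adjusted p of 0.439. The interaction of sex and day was called for no member in either step (0% and 0% of all genes, with 333 and 3232 of 16325 genes at an unadjusted p under 0.05). The lowest p among the members was that of THRA in the second step, where the fitted change was 0.25 ± 0.10 SE in females and -0.08 ± 0.10 SE in males (unadjusted p = 0.0282, adjusted p = 0.227).

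These within-sex calls were less steady than those of the litters. Without male GD45 replicate 17, the female count of the first step was 5 in place of 3, with THRB (adjusted p = 0.0071) and SLCO1C1 (adjusted p = 0.00895) added, and DIO3 was no longer called in males (adjusted p = 0.0554). Fitted on the 6 male libraries alone, edgeR called 0 members and 0 of 15283 genes in the first step, though 1692 genes had an unadjusted p under 0.05. KLF9 in the first step was not called in females without female GD45 replicate 13, female GD45 replicate 18, female GD60 replicate 3 or female GD60 replicate 5 (adjusted p 0.0519 to 0.0973), nor in males without male GD60 replicate 4 (adjusted p = 0.0787). The call of DIO3 in males in the first step was also lost without male GD60 replicate 4, replicate 6 or replicate 16 (adjusted p 0.0606 to 0.0756). In the second step it was lost in females without female GD60 replicate 15, female GD90 replicate 2 or female GD90 replicate 9 (0.0515 to 0.0728) and in males without male GD60 replicate 6, male GD60 replicate 16, male GD90 replicate 8 or male GD90 replicate 10 (0.059 to 0.104). CRYM in females was lost without female GD60 replicate 3, female GD60 replicate 5, female GD90 replicate 2 or female GD90 replicate 9 (0.0843 to 0.135).

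Reads were also counted by exon, and each exon's change was compared with that of its gene. Of the 53 member exons that could be tested, 0 were called in either step (lowest adjusted p 0.951 and 0.651), beside 0.0328% and 0.103% of all exons. DIO3 has 1 exon and could not be tested. Only 4 of the 30 annotated exons of THRB, 2 of the 5 of DIO2 and 2 of the 13 of SLC16A10 had enough counts to be tested. In simulated counts for GD90 against GD60 the test recovered 62% of exon changes of 2 on the log2 scale. The 0 calls therefore do not show that the transcript forms of the members were unchanged. The test was edgeR's diffSpliceDGE, in which 1 member exon in each step had an unadjusted p under 0.05, and limma's diffSplice called 0 as well. In the second step this was the long last exon of CRYM (chromosome 3, 24833026 to 24835836, known in 1 annotated transcript), chosen after its values were seen. It held 40.8%, 39.0% and 32.5% of the counts in CRYM's 6 tested exons in the GD45 litters of 16, 17 and 8. In the GD60 litters of 13, 15 and 8 it held 30.5%, 29.5% and 26.3%, and in the GD90 litters of 10, 11 and 18 it held 15.3%, 16.3% and 18.1%. The 3 days did not overlap. Relative to its gene the exon changed by -0.54 on the log2 scale from GD60 to GD90 (unadjusted p = 0.00793, adjusted p = 0.651), and the other 5 tested exons by 0.04 to 0.42. Not taken relative to the gene, the last exon was fitted at -0.25 ± 0.21 SE (adjusted p = 0.463, quasi-likelihood test). On that scale the other 5 had fitted gains of 0.59 to 1.13. Both shorter exons annotated inside it held 0 counts in every litter. The same held in THRA for the exon at 22275202 to 22275329, inside an exon with 3201 counts in the GD45 litter of 16. How reads in overlapping exons were counted was not tested. These zeros therefore do not show that the shorter exons were unused, and the last exon's share may leave out reads there.

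**Figure D4:**
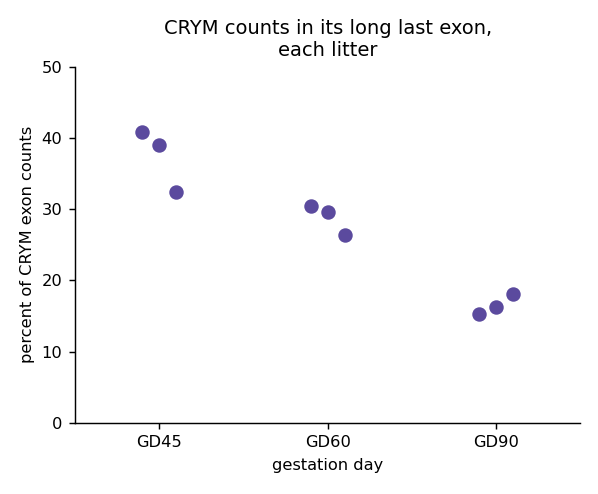
Percent of the counts in CRYM's 6 tested exons that fell in its long last exon, 1 point a litter, by gestation day. The 3 GD45 litters lie between 32.5% and 40.8%, the GD60 litters between 26.3% and 30.5%, and the GD90 litters between 15.3% and 18.1%.

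The other genes of the pathway were taken from fixed lists, and their calls for GD90 against GD60 follow, with the median change of all genes at -0.016 on the log2 scale. In that step 18.7% of all genes tested rose and 18.7% fell, and the counts of every list are to be read beside these shares. Of 8 tested among 9 other transporters and carriers, 2 rose and 1 fell (median log2 0.23). SLCO1A2, an organic anion transporter that takes T4, rose 1.80-fold (adjusted p = 0.00661), SLC3A2, the heavy chain of amino acid carriers that also take T3, rose 1.29-fold (adjusted p = 0.0185, but 0.0601 to 0.0798 without the GD60 litter of 13, the GD60 litter of 15 or the GD90 litter of 10), and SLCO4A1 fell by 1.77 on the log2 scale (adjusted p = 0.00133). SERPINA7, the plasma T4-binding globulin, was listed at 0 in every library and was not tested.

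Of the 6 genes tested for deiodination, selenoprotein synthesis and conjugation, 2 fell (median log2 -0.10), beside 18.7% of all genes. USP20, a deubiquitinase that stabilises the DIO2 protein, fell by 0.51 on the log2 scale (adjusted p = 0.00188), and EEFSEC, the elongation factor for selenocysteine, fell by 0.50 (adjusted p = 0.0481). The call of EEFSEC was lost in 6 of the 9 fits that left out 1 litter, those without the GD45 litter of 16, the GD60 litter of 15, the GD60 litter of 8 or any GD90 litter (adjusted p 0.0525 to 0.168). DIO1, the deiodinase of liver and kidney, never exceeded 3 counts in a library and was not tested. Among the 3 retinoid X receptors, RXRA rose 1.29-fold (adjusted p = 0.0435) and RXRG fell by 0.53 (adjusted p = 0.00828), after a rise of RXRG from GD45 to GD60 (1.59-fold, adjusted p = 0.00803). RXRA was not called without the GD45 litter of 16, the GD60 litter of 8 or any 1 of the GD90 litters (adjusted p 0.0502 to 0.126).

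Of 5 corepressor genes tested, 3 fell (median log2 -0.46), where 18.7% of all genes rose and 18.7% fell. GPS2 fell by 0.76 (adjusted p = 0.0034), HDAC3 by 0.56 (adjusted p = 0.00406) and NCOR1, the corepressor bound to the receptor without hormone, by 0.46 (adjusted p = 0.0034). Of 7 coactivators, KAT2B, an acetyltransferase, rose 1.95-fold (adjusted p = 3.86e-05), CREBBP fell by 0.67 (adjusted p = 0.000852), and the other 5 were not called (median log2 -0.25).

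Of 14 other genes reported to answer to T3 in rodent brain, 10 rose (median log2 1.04), where 18.7% of all genes rose and 18.7% fell. Between GD45 and GD60, 3 of the 14 rose and 1 fell, beside 6.75% and 4.86% of all genes. The myelin genes MAG and MBP rose 80.3-fold and 39.4-fold, and both are also in the list of oligodendrocyte markers. NRGN, a postsynaptic calmodulin-binding protein, rose 10.2-fold (adjusted p = 1.53e-06). The list was compiled from rodent reports with earlier results of these data known. Of the 4 genes tested of the hypothalamic and pituitary axis, TRHDE, which degrades TRH, rose 2.83-fold (adjusted p = 0.000277), and the other 3 were not called (median log2 0.29). TSHB, the beta chain of thyrotropin, had at most 9 counts in a library.

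**Figure D5:**
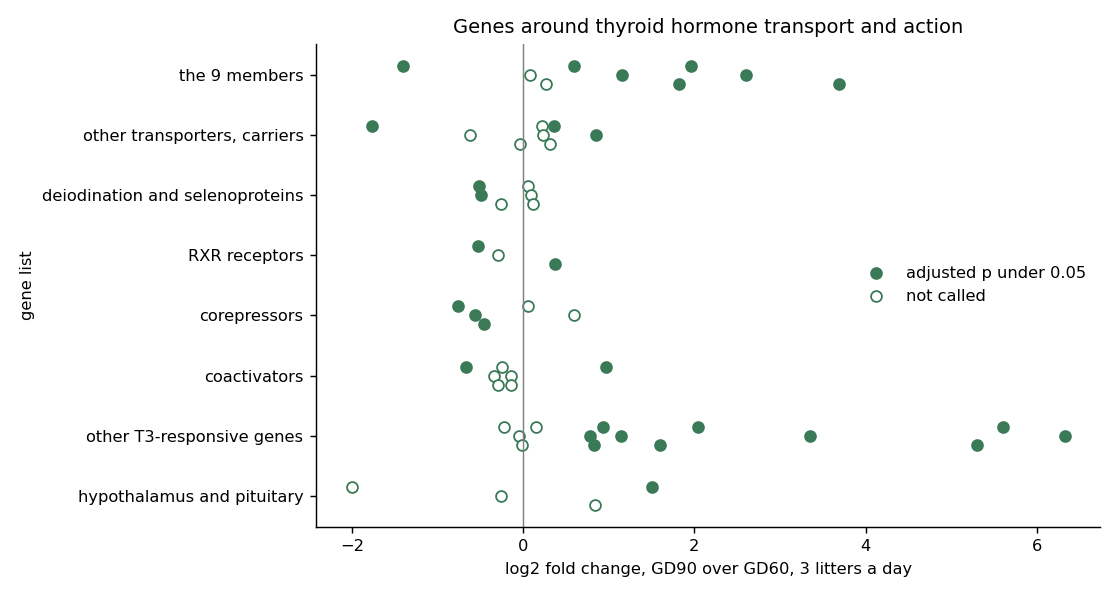
Log2 fold change from GD60 to GD90 (3 litters a day) of the 9 members and of the genes in each fixed pathway list, filled where the adjusted p was under 0.05. The T3-responsive genes reach 6.33 (MAG), while the called corepressors lie between -0.76 and -0.46.

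Markers of several cell types moved with age beside the members. The summed level of 4 astrocyte markers in the table was 106.7 to 259.6 CPM at GD45, 317.9 to 430.5 at GD60 and 1334 to 1725 at GD90. The 6 oligodendrocyte markers summed to 19.3 to 43.2, 35.5 to 73.0 and 1739 to 2991 CPM. The 4 neuronal markers summed to 1965 to 2997, 2981 to 4598 and 4092 to 4722 CPM, and 4 progenitor markers to 524.9 to 715.4, 218.1 to 326.8 and 98.8 to 167.8 CPM. Between GD60 and GD90, 18.7% of all genes tested rose and 18.7% fell. In that step, 3 of 4 astrocyte, 6 of 6 oligodendrocyte, 3 of 4 neuronal and 4 of 4 microglial markers rose. Of the endothelial markers 2 of 5 rose, and 4 of 4 progenitor and 3 of 6 choroid plexus markers fell. The part of these cell types in the members' changes was not tested. The thyroid gland markers summed to 10.8 to 22.3 CPM and the pituitary markers to 0.0567 to 61.4 CPM over all libraries, with 0.518 CPM as the highest pituitary sum at GD90, and blood markers to 92.6 to 655.5 CPM. Of 3 pituitary, 3 thyroid gland and 3 blood markers tested, 1, 1 and 2 fell and 0, 1 and 0 rose in the last step.

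Among 12809 named genes with a mean of at least 1 CPM, those whose log2 CPM ran closest to each member over the 18 libraries are given as a description, since all libraries share the course of age. They were PLCB1 (r = 0.992) and MAP7 (0.987) for THRB, DDN (0.990) and CAMK2B (0.989) for DIO2, LRR1 (0.956) and TMEM98 (0.955) for DIO3, and BHLHE40 (0.991) and ANKRD33B (0.981) for SLCO1C1. For KLF9 they were AQP4 (0.989) and VCAM1 (0.987), and for HR MAG (0.989) and ACSBG1 (0.988). AQP4 is the water channel of astrocyte endfeet, and MAG a myelin protein. The members that changed least had looser matches: TMEM271 (0.897) and FLOT2 (0.894) for THRA, TANGO2 (0.939) and MTFP1 (0.938) for CRYM, and TMEM161B (0.857) and TMEM67 (0.837) for SLC16A10.

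The 250 bases before the annotated start of each gene were searched on both strands for the receptor's core motif AGGTCA. It was present for THRB and SLC16A10, 1 match each, and for none of the other 6 members with a window. Of 30431 windows of all genes, 12.5% held it. No member window held the motif repeated after 4 bases, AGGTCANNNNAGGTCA, which 5 of all windows did. A match in letters is not a binding site. The starts used for DIO2, HR and KLF9 lie upstream of their RefSeq starts, at 103110749, 6404968 and 223747661, so their windows are not those of the RefSeq transcripts. For THRB and SLCO1C1 the RefSeq starts, at 11360587 and 52315311, lie further upstream, so their windows fall inside the RefSeq genes. The match for THRB is thus not one before its RefSeq start. THRA's RefSeq start, at 22296684, lies within its window.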

How the data were processed

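Whole fetal brains of 9 female and 9 male pigs were sequenced as oligo(dT)-enriched RNA. Per the labels and the study's methods, the deposited counts per gene and per exon were made by the authors with featureCounts from reads cleaned in Trimmomatic and placed on Sscrofa11.1 by HISAT2. A table of transcript counts was not used here. The gene length in the deposited table is of an other kind, in bases. Repeat runs were summed. FPKM was computed from CPM and that length.

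Counts of littermates, inferred from gestation day and litter size, were summed, and edgeR 4.0.16 (filterByExpr, TMM, quasi-likelihood test, Benjamini-Hochberg over all genes) compared days over 9 litters. Sex, within-sex and interaction comparisons used 6 groups of 18 libraries. Exon shares used diffSpliceDGE. Alternatives used the likelihood ratio test, DESeq2 1.42.0, limma 3.58.1, no TMM, other filters, fewer libraries, a litter block and 1 litter or fetus left out. Scripts were tested on simulated data. Standard errors of the comparisons of litters cover the spread between these summed litters. Those of the sex, within-sex and interaction comparisons cover the spread between these fetuses. All 9 members are named, pathway lists are given as counts with the largest rise, the largest fall and the lowest p, and for each member the 2 most alike genes. A gene that this rule names is not reported here. Members and lists were chosen with earlier results of these data known. R 4.3.3, pandas 2.3.3, pysam 0.24.0 and matplotlib 3.10.9 were used.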

Additional observations from a re-analysis of the deposited data

Results flagged for a closer look

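Of the 27 sets of 6 libraries (9 members at 3 gestation days), 1 had a library far from the others by Dixon's ratio, where chance gives about 1 in 20. At GD45, CRYM was at 319.6 CPM in male GD45 replicate 17, of the small-brained litter of 8, with the next library at 203.2 CPM. Its littermate, female GD45 replicate 18, was at 197.9 CPM.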

How the results depend on the processing

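The 3 gestation-day comparisons of litters were refitted in 15 settings. In GD60 against GD45 and GD90 against GD60, DIO2, KLF9, HR and THRB were called in each, and the members called with 1 litter left out ranged from 4 to 6 and from 6 to 7. THRA in GD90 against GD45 was not called in 10 settings (adjusted p 0.0548 to 0.138), among them the likelihood ratio test, no TMM and no filter. No member changed direction in a called comparison. With 1 litter left out, all genes called ranged from 1049 (without the GD60 litter of 15) to 2133 (without the GD60 litter of 8) in GD60 against GD45, beside 1974 in the model reported.

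In females, GD60 against GD45, 5 members were called by the likelihood ratio test and by DESeq2 in place of 3, all genes called were 1806 by DESeq2 in place of 1178, and leaving out 1 fetus gave 2 to 5 members and 531 to 2329 genes. In males, DESeq2 called 1411 genes in place of 916, the 6 libraries alone gave 0 members and 0 genes, and leaving out 1 fetus gave 1 to 4 members and 476 to 1550 genes. Fitted alone, the 6 libraries also ended the call of HR in females in that step (adjusted p = 0.0833) and of CRYM in females in the second (adjusted p = 0.059), and called CRYM in males (adjusted p = 0.0187). THRA in females in the second step was called by DESeq2 (adjusted p = 0.00686), without male GD45 replicate 17 (adjusted p = 0.0331) and without female GD60 replicate 3 (adjusted p = 0.0455). The cause was not tested.

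No member was called for sex or for the interaction in any setting. Genes called for sex at GD90, 16 in the model reported, were 42 by the likelihood ratio test, 52 by DESeq2, 1062 from the 6 libraries alone and 12 to 28 with 1 fetus left out. With litter as replicate block, 9, 9 and 10 genes were called for sex at GD45, GD60 and GD90 in place of 15, 16 and 16. The deviations of inferred littermates from their groups correlated between -0.093 and 0.424, and 4 of 9 pairs were under 0.1, so the pairs remain an inference from gestation day and litter size. With all 18 libraries and litter as replicate block, 6, 7 and 8 members were called in the 3 gestation-day comparisons, as without it. It did not call EEFSEC (adjusted p = 0.078). Genes called for the interaction in the second step were 129 by the likelihood ratio test, 268 by DESeq2, 3 without TMM, 1 without the filter and 0 to 2209 with 1 fetus left out (2209 without male GD45 replicate 17), in place of 0.

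RXRA was also not called without TMM (adjusted p = 0.0863) or without the filter (adjusted p = 0.0624). Without TMM the share of higher calls in GD90 against GD60 moved by under 10 points. For exon shares limma called 16 and 194 exons over all genes in place of 29 and 91, leaving out 1 litter gave 0 to 418 and 44 to 192, and 0 were the members' in each. The unadjusted p of CRYM's last exon ran from 0.000858 to 0.0388 (adjusted p 0.173 to 1). Low counts limit DIO3 at GD90 (5 to 14 per library), SLC16A10 (8 to 49), and KLF9 and HR at GD45 (5 to 79 and 12 to 31).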
